A study of Mus musculus with 8 samples.

Results

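Genes of mitosis and the spindle were examined as a set of 44 symbols, listed by name for their known roles, among 54232 gene identifiers counted in every library. Each of the 44 symbols matched 1 Ensembl identifier. All 44 had reads in all 8 libraries, with a lowest count of 28 (Ube2c and Ccnb1 in wild-type vehicle library 1), so no member entered the tests through its level in 1 group alone. The libraries came from epidermis scraped off the shaved back skin of female F1 C57Bl x 129 mice, either wild type or REDD1 knockout. REDD1, the product of Ddit4, is a stress-induced inhibitor of the growth kinase complex mTORC1. Vehicle mice received acetone (200 ul). TPA mice received 4 ug of a phorbol ester that irritates skin and promotes tumours. FA+TPA mice received 2 ug of fluocinolone acetonide (FA), a glucocorticoid, 1 h before the same dose of TPA, and skin was harvested 24 h after TPA. There were 2 wild-type and 2 knockout vehicle libraries and 1 library per genotype for TPA and for FA+TPA. No group received FA alone among the samples analysed here, and the labels state neither the age of the mice nor how many animals went into a library.

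Cells enter mitosis when cyclin B binds and activates the kinase CDK1. Kinesins, kinetochores and condensin then act on the spindle and the chromosomes. The spindle assembly checkpoint holds anaphase until chromosomes are attached, and the anaphase-promoting complex ends mitosis by marking cyclins for destruction. Many of these genes are transcribed together late in the cell cycle by FOXM1, B-MYB (Mybl2) and the MuvB complex, which acts through the cell cycle genes homology region in promoters, and by NF-Y, which binds CCAAT boxes. In epidermis, division occurs mainly in the basal layer, and TPA is a classical stimulus of it, while glucocorticoids are known to restrain keratinocyte growth.

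The promoters are shown because the members moved together after TPA. RefSeq promoter windows of 300 bases (250 before the transcript start and 50 after it) were found for 35 of the 44 members, as 37 windows because Ect2 and Prc1 had 2 each. CCAAT, searched on both strands, was present in 29 of 37 windows (78.4%), against 37.4% of all 32851 promoter windows, and at 2 or more positions in 48.6% against 11.7%. CCAAT was also present in 62.7% of windows of other mitotic genes and 59% of those of DNA replication and G1/S genes. The homology region, searched as TTTGAA or TTCGAA on both strands, was present in 30 of 37 (81.1%) against 19.2% of all windows. It was in 60% of windows of other mitotic genes and 17.9% of those of DNA replication and G1/S genes. Both motifs were present in 27 of 37 (73%) against 7.52%, and no CCAAT match shared a base with a TTTGAA or TTCGAA match. The same share was 40% in promoters of other mitotic genes and 15.4% in those of DNA replication and G1/S genes. CCAAT matches had a median position of -71 and those of the homology region of -5, counted from the transcript start. A palindromic glucocorticoid receptor site, written as GNACA and TGTNC with 3 bases between them, matched 0 of 37 windows and 0.475% of all windows. With so low a share over all windows, 0 of 37 does not set the members apart. These are matches of letters and not measured binding. The stretches below are RefSeq sequence on GRCm38.p6, 5′ to 3′ on the strand of the gene, lie within 150 bases before a transcript start, and overlap no annotated exon. They belong to the chromosome gene Top2a (chr11:99024200-99024339, minus strand), the mitotic cyclin Ccnb2 (chr9:70421555-70421704, minus), the proliferation marker Mki67 (chr7:135716451-135716529, minus), and to 2 of the 3 members that differed between genotypes in vehicle skin, Kif11 (chr19:37376232-37376381, plus) and Bub1b (chr2:118598061-118598201, plus). Capitals mark CCAAT or its reverse complement, and TTTGAA or TTCGAA or their reverse complements.
Top2a: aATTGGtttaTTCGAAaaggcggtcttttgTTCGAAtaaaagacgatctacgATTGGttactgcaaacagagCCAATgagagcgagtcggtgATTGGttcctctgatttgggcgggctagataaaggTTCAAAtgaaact
Ccnb2: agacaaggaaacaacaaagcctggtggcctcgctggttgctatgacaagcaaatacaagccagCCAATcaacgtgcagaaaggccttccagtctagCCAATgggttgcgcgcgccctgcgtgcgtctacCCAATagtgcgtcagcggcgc
Mki67: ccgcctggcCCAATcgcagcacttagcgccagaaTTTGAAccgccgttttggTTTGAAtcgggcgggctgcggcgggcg
Kif11: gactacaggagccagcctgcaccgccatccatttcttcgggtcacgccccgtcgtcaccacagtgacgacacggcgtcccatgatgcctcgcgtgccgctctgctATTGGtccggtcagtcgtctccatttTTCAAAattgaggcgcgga
Bub1b: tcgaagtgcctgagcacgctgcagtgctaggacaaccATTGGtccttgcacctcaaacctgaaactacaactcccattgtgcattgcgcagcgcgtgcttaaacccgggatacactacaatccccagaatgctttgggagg
The Top2a stretch carried 4 CCAAT matches and 3 of the homology region, the Ccnb2 stretch 3 and 0, the Mki67 stretch 1 and 2, the Kif11 stretch 1 and 1, and the Bub1b stretch 1 and 0. All stretches printed here carry a match. Those of Nuf2, Ncapg, Mad2l1, Anln, Kif23, Birc5 and Kif20b also overlap no annotated exon, carried neither motif and are not printed. The stretches are shorter than the windows and leave out matches elsewhere in them. The Ccnb2 window also held TTTGAA at positions -167 and 5, and the Bub1b window TTTGAA at 41 and TTCGAA at -188.

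Library totals ranged from 16874233 to 22560098 counts. Values are CPM, the count scaled to library size with TMM factors. A gene with no read could have had up to 3 counts, which is 0.133 to 0.178 CPM (counting error only). The transcript Gm26917 took 8.34% to 13.83% of counts in vehicle libraries and 16.77% to 24.21% in treated ones. Ddit4 stood at 128 and 117 CPM in wild-type vehicle skin and 18.8 and 18.6 CPM in knockout vehicle skin, and at 64.2 against 4.44 CPM after TPA and 90.3 against 7.25 CPM after FA+TPA, so every library labelled knockout was below every wild-type one. The basal keratinocyte keratins Krt5 and Krt14 were above 2000 CPM in every library. Krt15, another basal keratin, was at 1980 to 2270 CPM in vehicle skin. It was at 172 and 380 CPM after TPA and 851 and 810 after FA+TPA (wild type, then knockout).

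TPA raised the whole set. Over both genotypes, all 44 members were higher after TPA than after vehicle at an adjusted p under 0.05 (edgeR quasi-likelihood test, adjusted over all 19251 genes tested), where 23.2% of all genes were higher. The median log2 fold change was 1.85 (3.6-fold), beside -0.03 over all genes, and ran from 0.60 for Smc4 to 3.01 for Ube2c. In both TPA libraries, all 44 members were above all 4 vehicle libraries, which held for 28.0% of genes tested. Fold changes exceeded 2 for 39 members and 4 for 16. FA given before TPA left most of the rise in place: against vehicle, all 44 were again higher (17.4% of all genes), with a median of 1.62 (3.08-fold), and all 44 had both FA+TPA libraries above all vehicle libraries (24.7% of genes). In summed level, the members took 655 and 700 CPM in wild-type vehicle skin, 866 and 924 CPM in knockout vehicle skin, 2490 and 2500 CPM after TPA (wild type, then knockout) and 2360 and 1990 CPM after FA+TPA. In tissue of many cells, more cells in mitosis and more RNA per cell cannot be told apart. The labels do not say that replicate libraries came from separate mice, so p-values here cover only the variation among these libraries, and it may be technical.

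**Figure D1:**
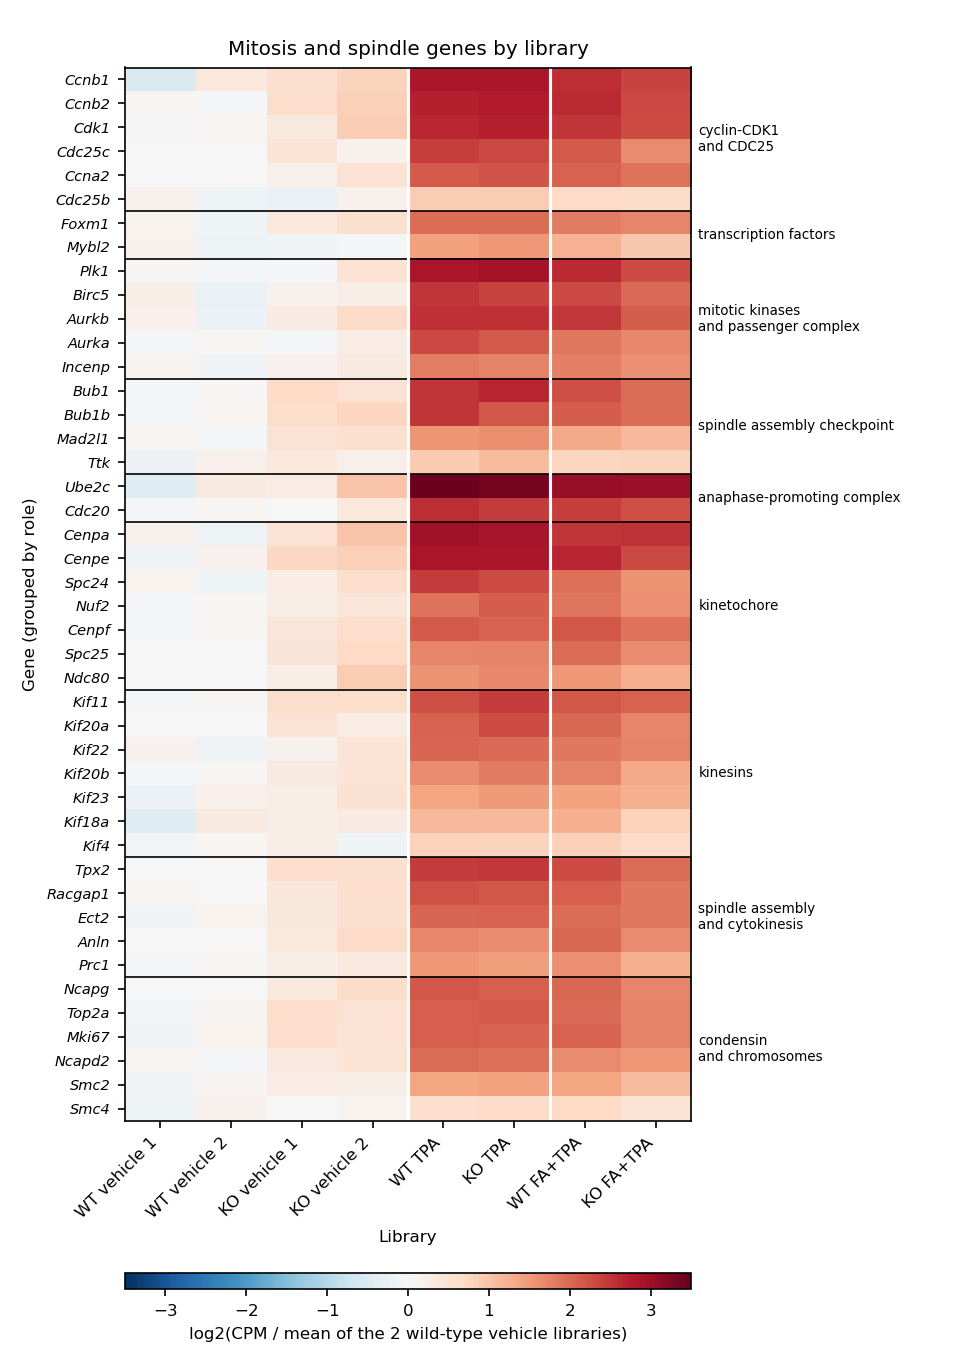
Level of each of the 44 members (rows, grouped by role) in the 8 libraries (columns), as log2 of CPM over the mean of the 2 wild-type vehicle libraries. The 4 treated columns lie above the vehicle columns for every member, and the knockout vehicle columns are slightly above 0 for most. Their member medians were 0.32 and 0.50 when 0.5 was added to each CPM and mean before the log, which the figure does not do.

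The difference between FA+TPA and TPA, the main comparison of this set, was small and did not pass the test for any member. With edgeR, 0 of 44 were lower over both genotypes (4.31% of all genes were), 5 had an unadjusted p under 0.05, and the smallest adjusted p was 0.0947, for Aurka. DESeq2 and limma-voom also called 0, with 4 and 5 members at an unadjusted p under 0.05. The estimates lay below 0 for 42 of 44, with a median log2 difference of -0.24 (0.846-fold) beside 0.01 over all genes, from -0.59 for Spc24 to 0.17 for Anln. The 95% intervals of this fit, which takes 1 difference for both genotypes, excluded a 2-fold decrease for 43 members, Spc24 being the exception. Within each genotype, the intervals excluded it for 41 members in wild type and 33 in knockout. Both FA+TPA libraries were below both TPA libraries for 34 members, against 25.4% of genes. These 2 libraries per treatment differ in genotype. Without the knockout FA+TPA library, 25 members lay below 0 and the median was -0.01, and without the wild-type one the median was -0.56.

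**Figure D2:**
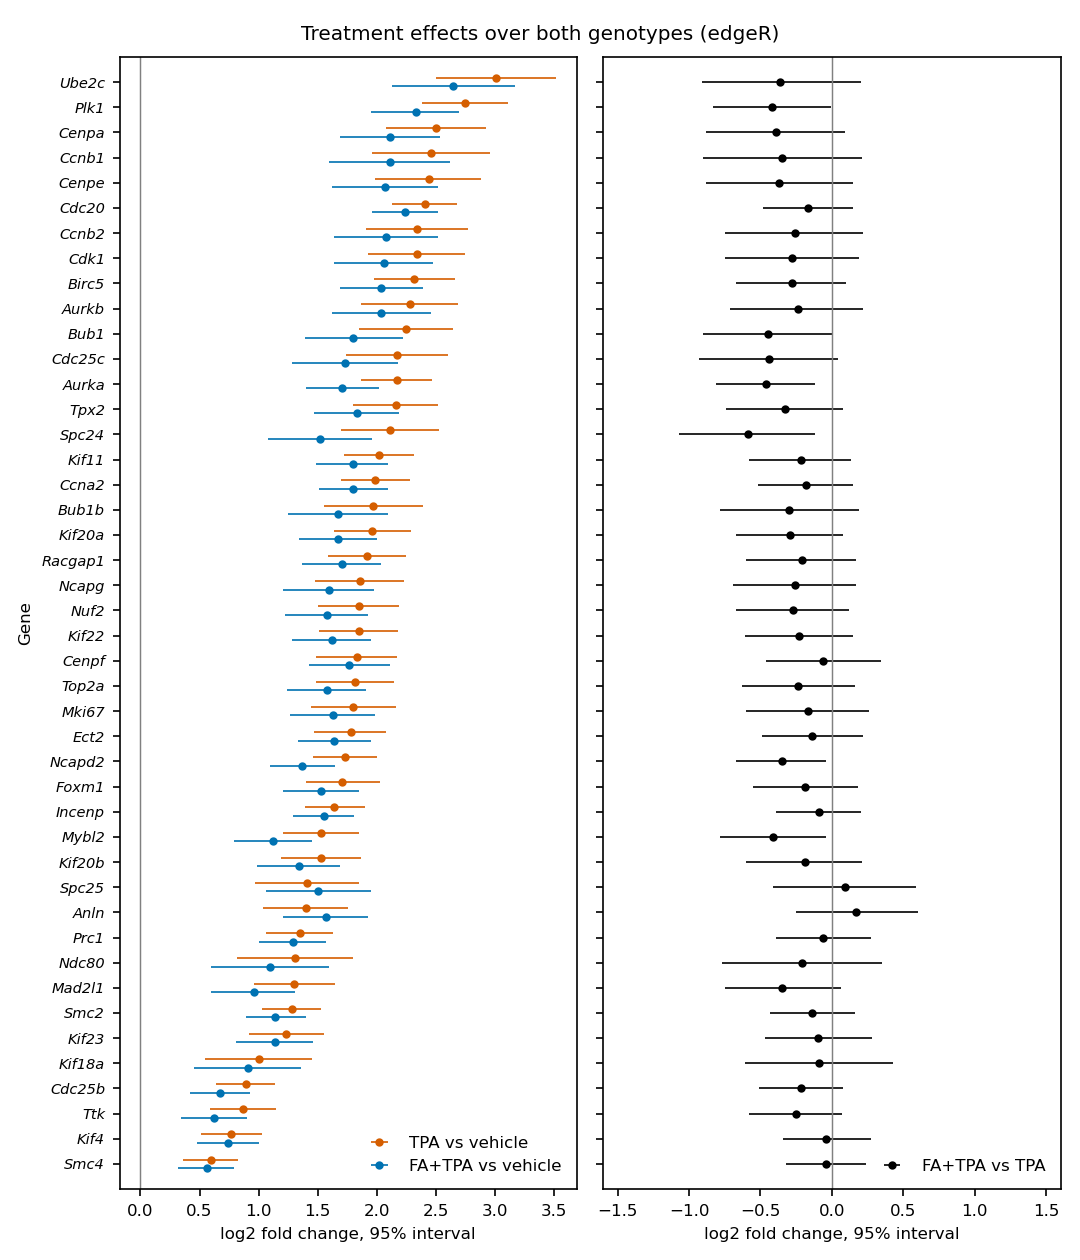
Log2 fold changes over both genotypes with 95% intervals for the 44 members, for TPA and FA+TPA against vehicle (left) and FA+TPA against TPA (right). All intervals on the left lie above 0, and on the right 39 of 44 include 0.

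The role of entry into mitosis held 6 genes, of cyclins, CDK1 and CDC25 phosphatases. They rose by a median of 2.26 on the log2 scale after TPA, and all 6 passed the test. Ccnb1, cyclin B1, was at 1.58 and 2.9 CPM in wild-type vehicle skin, 3.33 and 3.81 in knockout vehicle skin, 16 and 16 after TPA (wild type, then knockout, here and below) and 13.4 and 11.6 after FA+TPA. Ccnb2, cyclin B2, had 3.9 and 3.62 CPM in wild-type and 5.81 and 6.76 in knockout vehicle skin, 24.7 and 25.9 after TPA, and 23.1 and 18.7 after FA+TPA. For Cdk1, the kinase they activate (ENSMUSG00000019942, chr10:69335146-69352938 on GRCm38, as for the positions below), the values were 5.88 and 6.41, 7.78 and 11.3, then 38.4 and 40.6 CPM after TPA and 34.8 and 29.7 after FA+TPA. These genes had no overlap between vehicle and treated libraries, and in each the lowest treated library was the knockout after FA+TPA. Cdk1 rose by 2.34 ± 0.19 (log2 fold change ± SE; edgeR adjusted p = 4.14e-06), and FA+TPA differed from TPA by -0.28 ± 0.21 (adjusted p = 0.485). Ccna2, cyclin A2 of S phase and early mitosis, read 11.7 and 11.4 CPM in wild-type vehicle, 13 and 16.6 in knockout vehicle, 50.9 and 53.6 after TPA, and 48.6 and 42.9 after FA+TPA. The phosphatases that release CDK1 from inhibition differed in level and in size of rise. Cdc25c went from 1.98, 1.97, 2.77 and 2.18 CPM in vehicle skin to 10.5 and 9.7 with TPA and 8.65 and 6.22 with FA+TPA. Cdc25b was at 50.7 and 40.7 CPM in wild type and 40 and 50.8 in knockout, and reached 84.6 and 84.3 after TPA and 73.3 and 72 after FA+TPA. Per kilobase of exon, Cdc25b had 12.2 RPKM in vehicle skin and Cdc25c 0.452. The Cdc25b rise of 0.89 ± 0.11 (adjusted p = 9.57e-05) was the smallest of the 6, and Ccnb1 had the largest, 2.46 ± 0.23.

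Both transcription factors of the late cell cycle rose after TPA, by less than the median member. Foxm1 was at 11.1 and 9.05 CPM in wild-type vehicle skin, 13.1 and 14.8 in knockout vehicle skin, 39 and 39.3 after TPA, and 35.6 and 33.1 after FA+TPA. Mybl2 (B-MYB) was at 5.82, 4.6, 4.78 and 5.08 CPM in the vehicle libraries, with no separation of genotypes, then 14.2 and 15 after TPA and 12.1 and 10 after FA+TPA. The rises were 1.71 ± 0.14 for Foxm1 (adjusted p = 5.71e-06) and 1.53 ± 0.14 for Mybl2 (adjusted p = 1.24e-05). Mybl2 had 1 of the 5 unadjusted p-values under 0.05 for FA+TPA against TPA, at -0.41 ± 0.17 (edgeR adjusted p = 0.165).

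Mitotic kinases and the chromosomal passenger complex, which corrects faulty attachments of chromosomes, rose by a median of 2.28 after TPA, with all 5 genes past the test. Plk1, a kinase of centrosomes and kinetochores, was at 3.45 and 3.26 CPM in wild-type vehicle, 3.24 and 4.72 in knockout vehicle, 24.4 and 25 after TPA, and 20.5 and 16.4 after FA+TPA. Its rise of 2.75 ± 0.17 (adjusted p = 7.17e-07) was the second largest of all members. Aurka (ENSMUSG00000027496, chr2:172356190-172370535), the spindle-pole kinase Aurora A, was at 4.24 and 4.6, 4.22 and 5.27, then 22.1 and 19.4 CPM after TPA and 15.9 and 14.2 after FA+TPA. The FA+TPA values of Aurka were below the TPA values in both genotypes by a similar amount, -0.48 ± 0.24 in wild type and -0.45 ± 0.24 in knockout. Over both genotypes this difference was -0.46 ± 0.16, with an edgeR adjusted p of 0.0947. The passenger kinase Aurkb had 6.1 and 4.71 CPM in wild-type vehicle, 6.56 and 8.67 in knockout vehicle, 31.7 and 31.6 after TPA, and 30 and 23.4 after FA+TPA. Birc5 (survivin), its partner, read 4.63, 3.41, 4.5 and 4.72 CPM in vehicle skin, 22.6 and 20.8 after TPA, and 19.8 and 15.9 after FA+TPA. For both, the knockout FA+TPA library was the lowest treated one, and still more than 2-fold above every vehicle library. The scaffold Incenp rose by 1.64 ± 0.12 and had an FA+TPA difference of -0.09 ± 0.13.

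The checkpoint genes rose by a median of 1.64. Bub1, a checkpoint kinase of kinetochores, was at 3.05 and 3.26 CPM in wild-type vehicle, 5.11 and 4.49 in knockout vehicle, 17.9 and 20 after TPA, and 15.2 and 12.3 after FA+TPA. Bub1b (BubR1; ENSMUSG00000040084, chr2:118598211-118641591), a subunit of the complex that inhibits anaphase, was at 9.33 and 10.3, 15.1 and 16.5, then 55.3 and 44.1 CPM after TPA and 42.5 and 38.5 after FA+TPA. Ttk (Mps1), the kinase at the top of the checkpoint, was at 14 and 18.4, 20.9 and 18.3, then 30.5 and 34.8 CPM after TPA and 27.2 and 27.6 after FA+TPA. Bub1 rose by 2.25 ± 0.18 (adjusted p = 4.48e-06), while Ttk, at 0.87 ± 0.12 (adjusted p = 0.000238), was among the 3 members with the smallest rise. Bub1b was the member whose TPA library was lower in knockout than in wild type by the most. In knockout skin Bub1 had the lowest FA+TPA difference of all members, -0.70 ± 0.24, with an edgeR adjusted p of 0.19. Mad2l1, which binds the anaphase-promoting complex activator CDC20, rose by 1.30 ± 0.16.

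The anaphase-promoting complex contributed 2 members, its activator Cdc20 and its ubiquitin-conjugating enzyme Ube2c (ENSMUSG00000001403, chr2:164769898-164778822). Cdc20 was at 8.31 and 9.1 CPM in wild-type vehicle, 8.77 and 11.2 in knockout vehicle, 51.8 and 47.7 after TPA, and 46.8 and 41.8 after FA+TPA. Ube2c was at 1.58 and 2.64, 2.53 and 4.18, then 22.8 and 21.5 CPM after TPA and 17.6 and 16.8 after FA+TPA. Ube2c thus had the largest TPA response of the set, 3.01 ± 0.23 (adjusted p = 3.17e-06). Cdc20 had the smallest p of the 44, with a rise of 2.41 ± 0.12 (adjusted p = 2.66e-07). The Cdc20 gene shares exonic bases with Elovl1 on the opposite strand, which had 74272 counts over all libraries against 4086 for Cdc20, and the strand setting of the counting is not given in the sources used here.

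Kinetochore genes spanned a wide range of responses, with a median rise of 1.85. Cenpa, the histone H3 variant that marks centromeres, was at 9.72 and 7.76 CPM in wild-type vehicle, 12.4 and 17.5 in knockout vehicle, 66.6 and 65.1 after TPA, and 49.9 and 50.5 after FA+TPA. Cenpe (ENSMUSG00000045328, chr3:135212537-135273611), a kinesin of the kinetochore, was at 7.91 and 9.72, 14.7 and 15.8, then 64.4 and 64.3 CPM after TPA and 55.6 and 43.4 after FA+TPA. Both rose more than 4-fold, by 2.50 ± 0.19 and 2.44 ± 0.20. The 4 subunits of the NDC80 complex, which attaches microtubules, rose by less, from 1.31 for Ndc80 to 2.11 for Spc24. Ndc80 read 3.05, 3.1, 3.56 and 5.67 CPM in vehicle skin, 9.12 and 9.92 after TPA, and 8.84 and 7.49 after FA+TPA. Nuf2 went from 3.67, 4.03, 4.45 and 5.13 CPM to 14.4 and 16.8 after TPA and 14.1 and 11.7 after FA+TPA. The partners Spc24 and Spc25 lay near opposite ends of the FA comparison. Spc24 (ENSMUSG00000074476, chr9:21755442-21760303) had 3.62, 3, 3.94 and 5.04 CPM in vehicle skin, 17.9 and 16 after TPA, and 12.5 and 9.9 after FA+TPA, a difference of -0.59 ± 0.22 from TPA (edgeR adjusted p = 0.12). Spc25 had 2.77, 2.74, 3.75 and 4.45 CPM in vehicle skin, 9.06 and 9.2 after TPA, and 10.7 and 8.64 after FA+TPA, a difference of 0.09 ± 0.23. Neither difference passed the test. Spc24 passed only when no low-count filter was used (-0.61, edgeR adjusted p = 0.0377), where 3.73% of all genes were called lower. Cenpf, a late-cycle kinetochore protein, rose by 1.83 ± 0.15 and its FA+TPA library differed from TPA by 0.02 in wild type and -0.16 in knockout.

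All 7 kinesins, the motors that slide and depolymerise microtubules, rose after TPA, by a median of 1.53. Kif11 (Eg5; ENSMUSG00000012443, chr19:37376403-37421859), which pushes the spindle poles apart, was at 13.3 and 13.9 CPM in wild-type vehicle, 21 and 20.9 in knockout vehicle, 65.2 and 73.8 after TPA, and 61 and 56.8 after FA+TPA. Kif20a, a motor of cytokinesis, was at 6.16 and 6.21, 8.72 and 7.45, then 25.7 and 30 CPM after TPA and 24.7 and 20.3 after FA+TPA. Kif20b was at 10.1 and 11, 13.1 and 14.8, then 33.3 and 37.6 CPM after TPA and 35.1 and 26.4 after FA+TPA. In Kif20a and Kif20b the wild-type FA+TPA library stood within 0.08 log2 units of its TPA library, and the knockout one below it, at -0.56 ± 0.21 and -0.51 ± 0.20. Kif20a shares exonic bases with Cdc23 on the opposite strand, which had 4368 counts against its 2390. Kif18a, which dampens chromosome movements, had 4.8, 8.07, 7.55 and 7.9 CPM in vehicle skin, 14.2 and 14.2 after TPA, and 15.4 and 11.3 after FA+TPA. The chromosome kinesin Kif4 had 20, 22.4, 24.7 and 19 CPM in vehicle skin, 37.4 and 36.4 after TPA, and 38 and 34 after FA+TPA. Kif4 rose by 0.77 ± 0.12 (adjusted p = 0.000346) and differed by -0.04 ± 0.14 between FA+TPA and TPA. It shares exonic bases with Pdzd11 on the opposite strand, which had 4230 counts against its 4308. Kif22 and Kif23 rose by 1.85 ± 0.15 and 1.23 ± 0.14.

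Spindle assembly and cytokinesis genes rose by a median of 1.78. Tpx2, which activates Aurora A on spindle microtubules, was at 9.89 and 9.98 CPM in wild-type vehicle, 14.8 and 14.6 in knockout vehicle, 54.7 and 54.9 after TPA, and 48.5 and 38.3 after FA+TPA. Prc1, which bundles the central spindle, was at 20.6 and 22.8, 25.1 and 27.6, then 62.4 and 59.8 CPM after TPA and 65.7 and 51.6 after FA+TPA. Ect2, the exchange factor that starts furrow formation, was at 12 and 14.2, 17.4 and 19.5, then 53.3 and 54.3 CPM after TPA and 50.9 and 46.7 after FA+TPA. In each of these the 2 knockout vehicle libraries stood above the 2 wild-type ones. Anln (anillin), which links actin and the contractile ring, was at 35.7 and 36.8 CPM in wild-type vehicle, 46.5 and 57.3 in knockout vehicle, 116 and 115 after TPA, and 145 and 113 after FA+TPA. It was the member with the highest FA+TPA estimate, 0.17 ± 0.19 over both genotypes and 0.33 ± 0.19 in wild type, neither past the test. Racgap1, the partner of Ect2, rose by 1.92 ± 0.15.

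Condensin and chromosome genes included the members with the most reads and the one with the smallest rise. Mki67 (ENSMUSG00000031004, chr7:135689784-135716361), the Ki-67 proliferation antigen that coats mitotic chromosomes, was at 89.7 and 106 CPM in wild-type vehicle, 147 and 139 in knockout vehicle, 418 and 411 after TPA, and 409 and 325 after FA+TPA. Top2a (ENSMUSG00000020914, chr11:98992943-99024189), the topoisomerase that untangles sister chromatids, was at 59 and 66.5, 96.2 and 89, then 266 and 275 CPM after TPA and 248 and 207 after FA+TPA. In both, knockout vehicle libraries were above wild-type ones, and the knockout FA+TPA library was the lowest treated one. Per kilobase of exon, the mean level went from 12 to 41.2 RPKM for Mki67 and from 8.62 to 30 RPKM for Top2a between vehicle and TPA. The condensin subunit Ncapg had 6.16, 6.05, 7.78 and 9.58 CPM in vehicle skin, 27.4 and 26.1 after TPA, and 24.6 and 20 after FA+TPA. It shares exonic bases with Lcorl on the opposite strand, which had 4933 counts against its 2346. Smc4, the core ATPase of condensin, had 55.5, 69.2, 63.4 and 67.3 CPM in vehicle skin, 93.4 and 99.8 after TPA, and 101 and 86.9 after FA+TPA. Its rise of 0.60 ± 0.11 (adjusted p = 0.000962) was the smallest of the 44, while Ncapg and Ncapd2, subunits of the condensin complexes, rose by 1.86 ± 0.17 and 1.73 ± 0.12. Smc2, the other ATPase, rose by 1.28 ± 0.11. Ncapd2 had an FA+TPA difference of -0.35 ± 0.14, with an unadjusted p under 0.05 and an edgeR adjusted p of 0.163.

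Within each genotype, FA+TPA was compared with TPA as 1 library against 1, with the spread taken from the vehicle pairs. In wild type, 0 members were called lower by edgeR (1.46% of all genes were), with 0 at an unadjusted p under 0.05 in edgeR, DESeq2 and limma-voom. The FA+TPA library was below the TPA library for 35 members, against 47.4% of genes tested, and the median log2 difference was -0.13 (0.913-fold). Scaled by library size only, 23 members lay below 0, the median was -0.02, and that of all genes moved from 0.03 to 0.14. In knockout, 0 members were called lower (1.24% of all genes), with 11 at an unadjusted p under 0.05 in edgeR, 1 in DESeq2 and 14 in limma-voom. All 44 had the knockout FA+TPA library below the knockout TPA library, against 50.1% of genes, and the median was -0.37 (0.773-fold). The 3 lowest were Bub1 (-0.70), Spc24 (-0.69) and Cdc25c (-0.64). Without either wild-type vehicle library, the knockout comparison called 5 members lower, Bub1, Cenpe, Tpx2, Top2a and Ncapd2 each time, while the share of all genes called lower went from 1.24% to 4.63% without library 1 and 4.21% without library 2.

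**Figure D3:**
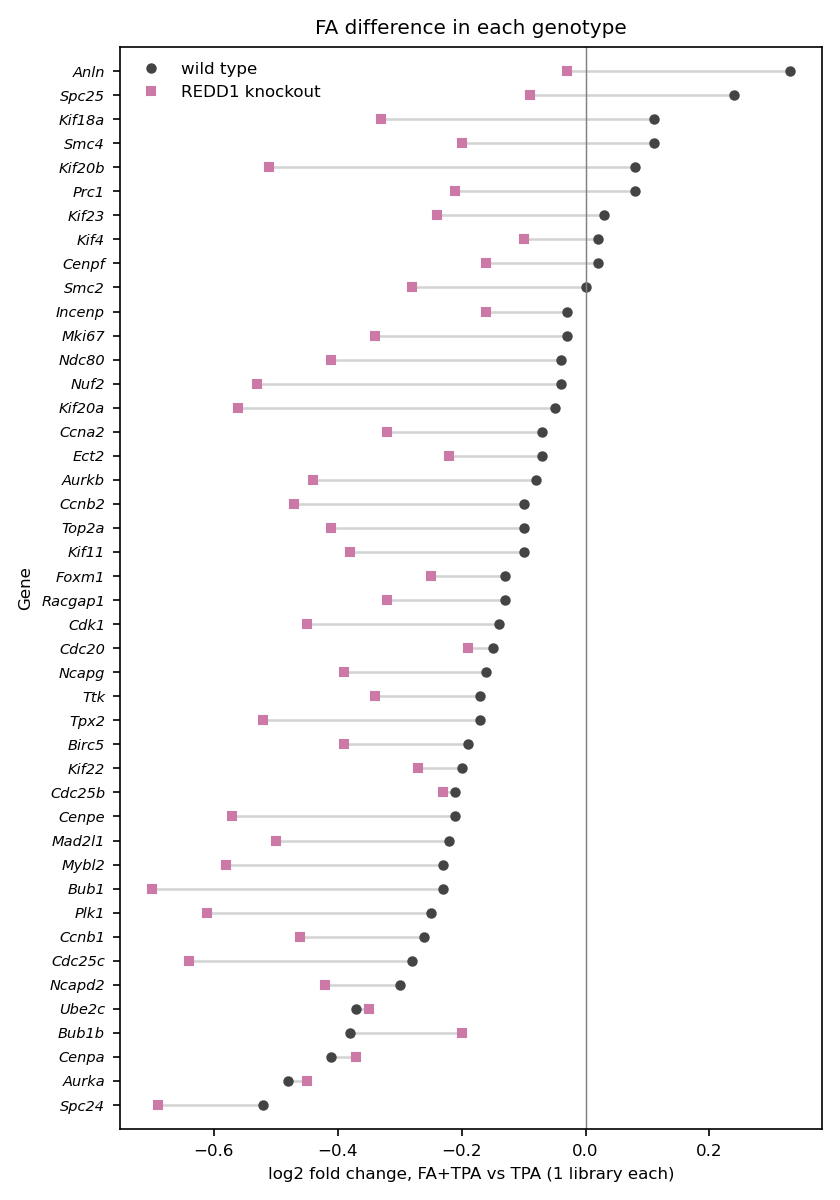
Log2 difference of FA+TPA from TPA for each member in wild type (circles) and REDD1 knockout (squares), 1 library against 1 in each. Wild-type points run from -0.52 to 0.33 and knockout points from -0.70 to -0.03, and for 40 of 44 members the knockout point lies to the left.

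The difference between genotypes in the FA response did not pass the test for any member. The knockout minus wild-type difference was below 0 for 40 of 44, with a median of -0.28, and edgeR, DESeq2 and limma-voom each called 0 members and had 0 at an unadjusted p under 0.05. Over all genes, edgeR called 0% lower, limma-voom 0 genes, and DESeq2 1 lower and 6 higher. Kif20b had the lowest value, -0.58 ± 0.28 (95% interval -1.21 to 0.05), followed by Kif20a at -0.50 and Nuf2 at -0.49. Bub1b, at 0.18 ± 0.27, Cenpa, at 0.05 ± 0.34, and Aurka, at 0.03 ± 0.34, were the highest. A 2-fold larger decrease in knockout was outside the interval for 29 members. It was inside the interval for the rest, so at this number of libraries such a difference was not excluded for every gene.

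In vehicle skin, 3 members were higher in knockout than in wild type, against 1.44% of all genes: Cenpe by 0.79 ± 0.15 (edgeR adjusted p = 0.0299), Kif11 by 0.62 ± 0.13 (adjusted p = 0.0382) and Bub1b by 0.68 ± 0.15 (adjusted p = 0.0432). Estimates were above 0 for 42 of 44, with a median of 0.46 (1.37-fold) beside -0.02 over all genes, and 26 had an unadjusted p under 0.05. Both knockout vehicle libraries were above both wild-type ones for 32 members, against 19.7% of genes. Next in size after Cenpe were Cenpa, at 0.78 ± 0.19 (adjusted p = 0.0795), and Ccnb2, at 0.74 ± 0.19 (adjusted p = 0.0819). Mybl2 (-0.08 ± 0.20), Cdc25b (-0.01 ± 0.16) and Kif4 (0.04 ± 0.16) were the lowest, and their libraries overlapped. The 3 calls depended on the libraries and the tool: limma-voom called 0 members (21 at an unadjusted p under 0.05), DESeq2 called Cenpe, Mki67 and Top2a, and edgeR called 0 without knockout vehicle library 2 (1.84% of all genes higher). Without wild-type vehicle library 1 or 2 it called 14 members, with 2.90% and 4.50% of all genes higher. Markers of other cells moved with this contrast. All 6 sebaceous gland markers were higher in knockout vehicle skin (summed 5020 and 6240 CPM against 2040 and 2980), as were 4 of 5 skeletal muscle markers (summed 171 and 67 CPM against 18.9 and 3.62), none of the listed markers of either being at 0 in all libraries. Their part in the result was not tested.

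**Figure D4:**
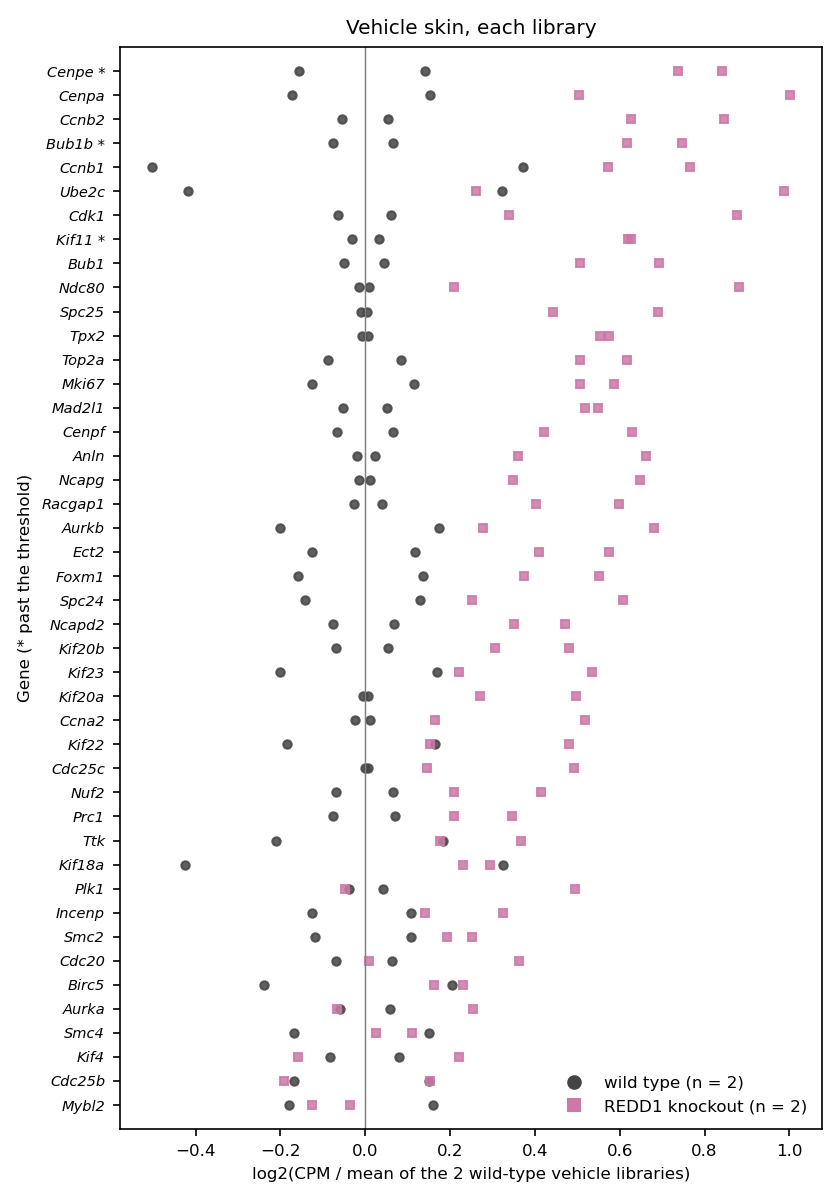
Level of each member in the 4 vehicle libraries, as log2 of CPM over the mean of the 2 wild-type libraries, with circles for wild type and squares for REDD1 knockout. Both squares lie to the right of both circles for 32 of 44 members, and asterisks mark Cenpe, Kif11 and Bub1b, which passed the test.

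The estimated rise after TPA was smaller in knockout than in wild type for most members. The TPA libraries of the genotypes were close (median over members 37.9 and 38.4 CPM) while the vehicle libraries were not (8.82 and 9.08 CPM against 12.7 and 14.7 CPM). The comparison shares the vehicle libraries with the preceding one. The knockout minus wild-type difference in the TPA response was below 0 for 41 of 44, with a median of -0.44, and 0 members were called lower, where 0.00519% of all genes were. An unadjusted p under 0.05 was reached by 10 members in edgeR, 6 in DESeq2 and 9 in limma-voom, the latter tools also calling 0. Bub1b had the lowest value, -1.01 ± 0.24 (edgeR adjusted p = 0.427), followed by Cenpa (-0.81 ± 0.31) and Cenpe (-0.79 ± 0.25). Mybl2 (0.16 ± 0.33), Smc4 (0.03 ± 0.24) and Cdc25b (0.00 ± 0.27) were the highest. Without wild-type vehicle library 1, Bub1b and Cenpa passed the test, with 1.05% of all genes lower. Without wild-type vehicle library 2, Bub1b, Cenpe, Cenpf and Mki67 did, with 1.6% of all genes lower.

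Other genes of the pathway were taken from 4 lists, and set beside the 44 members. Of 75 other mitotic genes tested, 68 rose after TPA and 0 fell (median 1.38), where 23.2% of all genes rose and 22.8% fell. The 3 with the smallest p were the spindle protein Tacc3 (1.98 ± 0.11, edgeR adjusted p = 4.4e-07), Cdca3 (2.26 ± 0.15) and the spindle microtubule protein Psrc1 (2.07 ± 0.14). Of 41 DNA replication and G1/S genes, 22 rose and 2 fell (median 0.42), with the ribonucleotide reductase subunit Rrm2 at 1.46 ± 0.10, Uhrf1, a partner of maintenance DNA methylation, at 0.94 ± 0.09, and the G1 cyclin Ccnd2 at -1.44 ± 0.11. Of 19 MuvB, Rb-family and E2F genes, 6 rose and 3 fell (median 0.08), led by the atypical E2F repressors E2f7 (1.86 ± 0.14) and E2f8 (1.33 ± 0.13), and by the E2F partner Tfdp2 (-1.12 ± 0.10). Of 16 CDK inhibitors and brakes on mitotic entry, 3 rose and 5 fell (median -0.07). The shares of called genes in this list and in the MuvB, Rb and E2F list were near those of all genes. Cdkn1b (p27) fell by 0.97 on the log2 scale, the antiproliferative gene Btg1 fell by 0.75, and the inhibitor Cdkn2d rose by 0.96.

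Some genes of these lists passed the test for FA+TPA against TPA, which no member did; the difference between lists was not tested. Over all genes, 5.71% were higher and 4.31% lower. Psrc1 was the single other mitotic gene of 75 that passed the test: it stood at 37.2 and 36.6 CPM after TPA and 19.3 and 18.5 after FA+TPA, a difference of -0.96 ± 0.16 (edgeR adjusted p = 0.00375), and at 7.46 to 11.1 CPM in vehicle skin. E2f7 was also lower, at 23.4 and 18.2 CPM after TPA and 11.2 and 10.1 after FA+TPA (-0.96 ± 0.17, adjusted p = 0.00474). In the same list E2f2, an activating E2F, was higher, at 26.4 and 20.4 against 49 and 40.1 CPM (0.93 ± 0.17, adjusted p = 0.00544). The list of MuvB, Rb and E2F genes had 2 higher and 1 lower of 19, the other being Tfdp2 (0.41 ± 0.11, adjusted p = 0.0451). Among brakes, 4 of 16 were higher and 1 lower. Btg1 stood at 134 and 122 CPM after TPA and 220 and 186 after FA+TPA, beside 186 to 232 in vehicle skin (0.66 ± 0.10, adjusted p = 0.00268). Wee1, the kinase that keeps CDK1 inactive, stood at 47.2 and 47 against 61.5 and 73.1 CPM (0.51 ± 0.13, adjusted p = 0.0332). Cdkn1b was also higher (0.40, adjusted p = 0.0372) and Cdkn2d lower (-0.53, adjusted p = 0.0405). Cdkn1c (p57) was called higher too, but was below the limit of 3 counts in both TPA libraries and no fold is given. Replication and G1/S genes had 1 higher and 3 lower of 41, shares near those of all genes. Cdk6, a G1 kinase, went from 281 and 244 CPM after TPA to 148 and 165 (-0.75 ± 0.11, adjusted p = 0.00189), close to its vehicle range of 131 to 150 CPM. Mcm5, a subunit of the replicative helicase, differed by -0.38 ± 0.10 (adjusted p = 0.0359), Uhrf1 by -0.41 (adjusted p = 0.0423), and Ccnd2 by 0.52 ± 0.12 (adjusted p = 0.0218). In vehicle skin, the spindle genes Aspm (0.74 ± 0.13, adjusted p = 0.0199) and Hmmr (0.81 ± 0.17, adjusted p = 0.036) were the 2 of 75 other mitotic genes higher in knockout than in wild type.

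**Figure D5:**
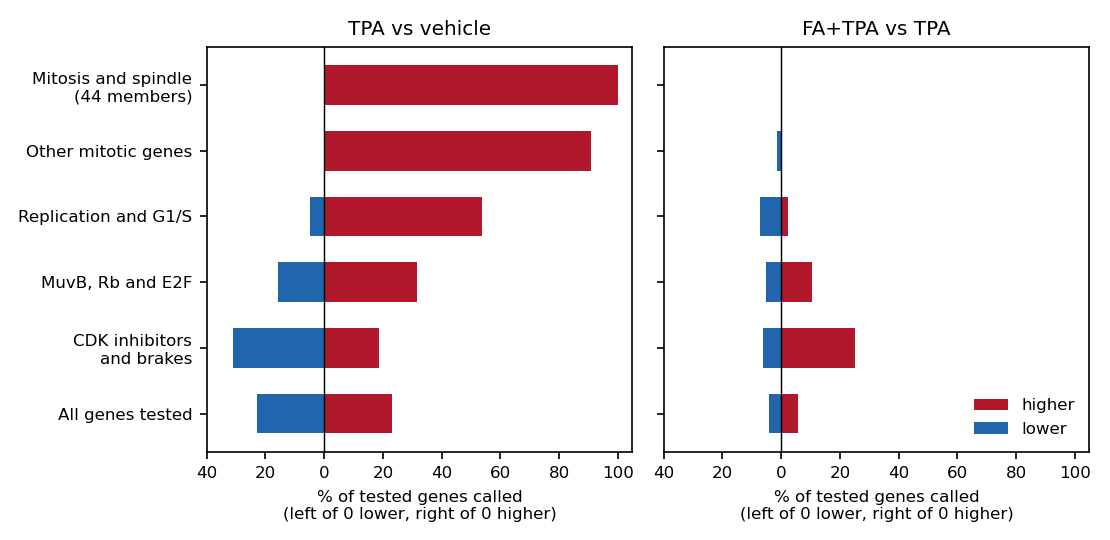
Share of tested genes called higher (right of 0) or lower (left of 0) at an adjusted p under 0.05, for the 44 members, the 4 other lists and all genes tested. After TPA the members reach 100% higher, and between FA+TPA and TPA no member is called.

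Summed markers of cell types moved with treatment as well. Basal keratinocyte markers summed to 11600 to 12800 CPM in vehicle skin, 14000 to 14800 after TPA and 15300 to 16500 after FA+TPA, with 1 of 7 higher and 3 lower for TPA against vehicle and 4 higher for FA+TPA against TPA. Suprabasal markers summed to 13400 to 15500, 6520 to 10500 and 19800 to 23300 CPM, with 4 of 6 higher for FA+TPA against TPA. Hair matrix and shaft markers summed to 9.56 to 11.2, 16.9 to 21.2 and 14.4 to 15.3 CPM. Of 4 tested, 1 was higher and 1 lower for TPA against vehicle, and 1 was lower for FA+TPA against TPA. Tchh was at 3.36 to 4.72 CPM in vehicle skin and 13 and 14.3 after TPA. Msx2 was at 2.68 to 4.14 CPM in vehicle skin and 1.79 and 2.06 after TPA. The hair keratins Krt31, Krt33a, Krt35, Krt71, Krt73, Krt81 and Krt86 were below 0.5 CPM in every library. Neutrophil markers summed to 35.4 to 46.8 CPM in vehicle skin, 434 to 980 after TPA and 115 to 209 after FA+TPA, with 5 of 5 tested higher after TPA and 4 lower with FA. Ly6g, a neutrophil marker, was at 0 in 7 of 8 libraries. Skeletal muscle markers summed to 21 and 29 CPM after TPA and 127 and 105 after FA+TPA. Other lists moved for TPA against vehicle. Macrophage and monocyte markers had 6 of 9 tested higher and 1 lower, and T cell markers 1 of 8 higher and 6 lower. Langerhans cell markers had 2 of 6 higher and 4 lower. Follicle stem cell markers summed to 396 to 675 CPM in vehicle skin and 1070 to 1350 after TPA. Over all genes, 23.2% were higher and 22.8% lower for TPA against vehicle, and 5.71% and 4.31% for FA+TPA against TPA. The part of these cell types in the members' levels was not tested.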

How the data were processed

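RNA was sequenced from 8 libraries. Reads were processed with Trim Galore, STAR and HTSeq on mm10, per the submitters' processing notes. Their versions, the annotation release and the strand setting: not given in the sources used here. The deposited files hold raw counts per Ensembl gene, which the authors made. Symbols matched for 54079 of 54232 identifiers, and 153 did not match. Of the 44 members, 15 share exonic bases with another gene in GENCODE M21, and reads of such pairs cannot be told apart without the strand.

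From the counts, CPM and tests were computed with edgeR 4.0.16 in R 4.3.3 (TMM; filterByExpr grouped by treatment, minimum count 10, leaving 19251 genes; quasi-likelihood F tests, Benjamini-Hochberg adjustment, threshold 0.05). Contrasts over both genotypes used an additive fit of genotype and treatment. Contrasts within a genotype, interactions and the vehicle contrast used 1 mean per group, where the spread comes from the vehicle pairs and is taken to hold for the single treated libraries. Standard errors are the absolute log2 fold change over the square root of F. The code was tested on simulated data.

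Vehicle replicates differed by more than sampling noise (chi-square per degree of freedom 27.57 in wild type, 12.37 in knockout). Alternatives were RLE factors, scaling by library size alone, keeping all genes with reads, a filter at 50 counts, DESeq2 1.42.0, limma-voom (limma 3.58.1), removal of Gm26917, 1 mean per group, each library left out, and a fit of the 4 vehicle libraries with or without a block for replicate number. The members and gene lists were chosen with earlier results of these data known. Values in every library were given for a fixed list of members, for those past a threshold and for the 3 highest and lowest per comparison, and pathway genes were taken by smallest p, up to 3 called per list for each treatment comparison. Cdkn1b, Cdkn2d and Uhrf1 (FA+TPA against TPA) and Aspm and Hmmr (vehicle skin) fall outside this rule and were named after their values were seen.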

Additional observations from a re-analysis of the deposited data

How the results depend on the processing

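The count of 44 members higher after TPA held under every alternative run. Against vehicle, the members' median for FA+TPA was 1.62 with all libraries. It was 1.38 without the wild-type FA+TPA library and 1.88 without the knockout one. Those fits rest on 1 FA+TPA library, so only the size of the difference is given. All 44 members were higher in FA+TPA than in vehicle in every run that kept both FA+TPA libraries. That count did not hold in every run that left 1 of them out. With library size only, the median of all genes for TPA against vehicle moved from -0.03 to -0.25, and the members' median from 1.85 to 1.62. For FA+TPA against TPA, 1 member (Spc24) was called lower with no low-count filter, where 3.73% of all genes were. Between 25 and 44 members were below 0 when each library was left out. In wild type, 23 members were below 0 with library size only. When each library was left out, the members called lower numbered 0 to 5 for FA+TPA against TPA in knockout and 0 to 4 for the genotype difference in the TPA response. For knockout against wild type in vehicle skin, the members called higher numbered 6 with no low-count filter (1.2% of all genes), 1 with a minimum count of 50 (1.1%), 0 with limma-voom (1.12%) and 0 to 14 when each library was left out (1.46% to 4.50%). The cause was not tested. Vehicle replicates share only a number (correlation of their deviations -0.12). On vehicle libraries alone, 1 member (Top2a) was called higher without a replicate block (1.28% of all genes) and 6 with it (2.95%). With the replicate numbers crossed, a pairing chosen after seeing the data, 8 were called (3.17%). Members with counts near 28 and groups of 1 or 2 libraries limit the precision.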
